A study of Mus musculus with 8 samples.

Results

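The genes described here encode ligands and receptors through which a macrophage stimulates or restrains T cells, together with the soluble inhibitor of interleukin-18 (IL-18). They were chosen by name, with earlier results of these data known, and all 8 (Cd274, Pdcd1lg2, Cd80, Cd86, Cd40, Havcr2, Lgals9 and Il18bp) were found among the 54532 Ensembl genes counted. RNA-Seq was performed in bone marrow-derived macrophages (BMDMs) grown for 7 days in L929-conditioned medium from tibial and femoral marrow of mice aged 6 to 8 weeks, all on the C57BL/6J background. The 4 groups held 2 libraries each: wild-type (WT) BMDMs, BMDMs of Trex1-/- mice (Trex1-KO), and Trex1-KO BMDMs given H151 (Trex1-KO+H151) or SN-011 (Trex1-KO+SN-011) for 12 h, with DMSO as the vehicle of the untreated groups. H151 was used at 500 nM per the labels, which give no dose for SN-011, and the study's methods state the same concentration for both. The Trex1-/- mice were offspring of heterozygous parents whereas the WT mice were purchased, so that the genotype and the origin of the mice cannot be told apart. The study calls the libraries of a group independent experiments. Neither it nor the labels say whether they came from separate mice, and p-values measure the spread between these libraries.

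Full activation of a T cell needs a second signal beside its antigen receptor, which CD80 and CD86 on the presenting cell give through CD28 and withdraw through CTLA-4. PD-L1 (Cd274) and PD-L2 (Pdcd1lg2) bind the inhibitory receptor PD-1, and CD40 on the macrophage receives the help of CD40 ligand on activated T cells. TREX1 is an exonuclease that degrades cytosolic DNA, and without it such DNA engages the sensor cGAS and the adaptor STING, which drive type I interferon and NF-kappaB programs. H151 and SN-011 are small-molecule STING antagonists: H151 binds STING covalently, and SN-011 occupies the pocket for cyclic dinucleotides.

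Total counts ran from 11845470 to 17284863 per library, so that 1 count was worth 0.0581 to 0.0848 CPM, the unit of all levels below (counts scaled to a common library total, with TMM factors for composition). Trex1 itself was listed at 0 counts in all libraries, WT included, its exons lie wholly within exons of Atrip, and the knockout could not be checked in these counts. The 8 macrophage markers, Csf1r and Adgre1 among them, summed to between 30054 and 32318 CPM in every library, most of it Lyz2. Of these, 3 (Fcgr1, Cd68 and Adgre1) were called higher in Trex1-KO, and Fcgr1, with a WT mean of 233 CPM against 513 CPM in Trex1-KO, was called lower with H151 (363 CPM) and SN-011 (365 CPM). Markers of other cells also moved with genotype. The 5 neutrophil markers summed to 5.62 to 6.10 CPM in WT but 28.9 to 45.9 CPM in Trex1-KO, nearly all of it S100a8 and S100a9. Ly6g was at 3 counts or fewer in every library, and Mpo and Elane, with at most 11 and 7 counts, were not tested. The 5 stromal markers summed to 2088 to 2283 CPM in WT but 856 to 1057 CPM in Trex1-KO, most of it Col1a1 and Col1a2. Of these 5, 4 were called lower in Trex1-KO, and Dcn, at means of 2.17 and 2.99 CPM, was not called. The 6 conventional dendritic cell markers summed to 1.62 to 2.65 CPM in WT but 3.36 to 3.62 CPM in Trex1-KO, with Ccr7 and Cd209a at 0 everywhere and Xcr1 and Clec9a called higher in Trex1-KO. Of the other dendritic cell markers, Zbtb46 went from a mean of 1.43 to 0.565 CPM without being called, and Flt3, with too few counts to be tested, from 0.277 to 0.0659 CPM. With the antagonists the neutrophil markers summed to 39.1 to 50.5 CPM, the stromal markers to 928 to 1214 CPM and the dendritic cell markers to 2.85 to 3.56 CPM. Of the other lists, the 4 B-cell and the 4 NK-cell markers summed to under 1 CPM in every library, the 6 T-cell markers to 33.4 to 34.4 CPM in WT but 18.7 to 21.9 CPM in the other groups, nearly all of it Cd4, and the 3 plasmacytoid dendritic cell markers to 199.8 to 205 CPM in WT but 232 to 399 CPM in the others, nearly all of it Bst2. Fewer cells of a type and less RNA per cell cannot be told apart in bulk RNA, and the part of these cells in the results below was not tested. The SN-011 libraries carry later records and another treatment text than the other 6, and a batch limited to them cannot be told apart from SN-011.

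Loss of Trex1 went with higher transcript levels of Cd274, Lgals9, Cd40 and Il18bp, each about doubled, whereas the CD28 ligands Cd80 and Cd86 and the receptor Havcr2 did not pass the test. With either STING antagonist Lgals9 and Cd40 were lower than in vehicle-treated Trex1-KO, with SN-011 Cd274 was too, and Il18bp did not pass the test with either. The level of each gene in every library is plotted first.

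**Figure D1:**
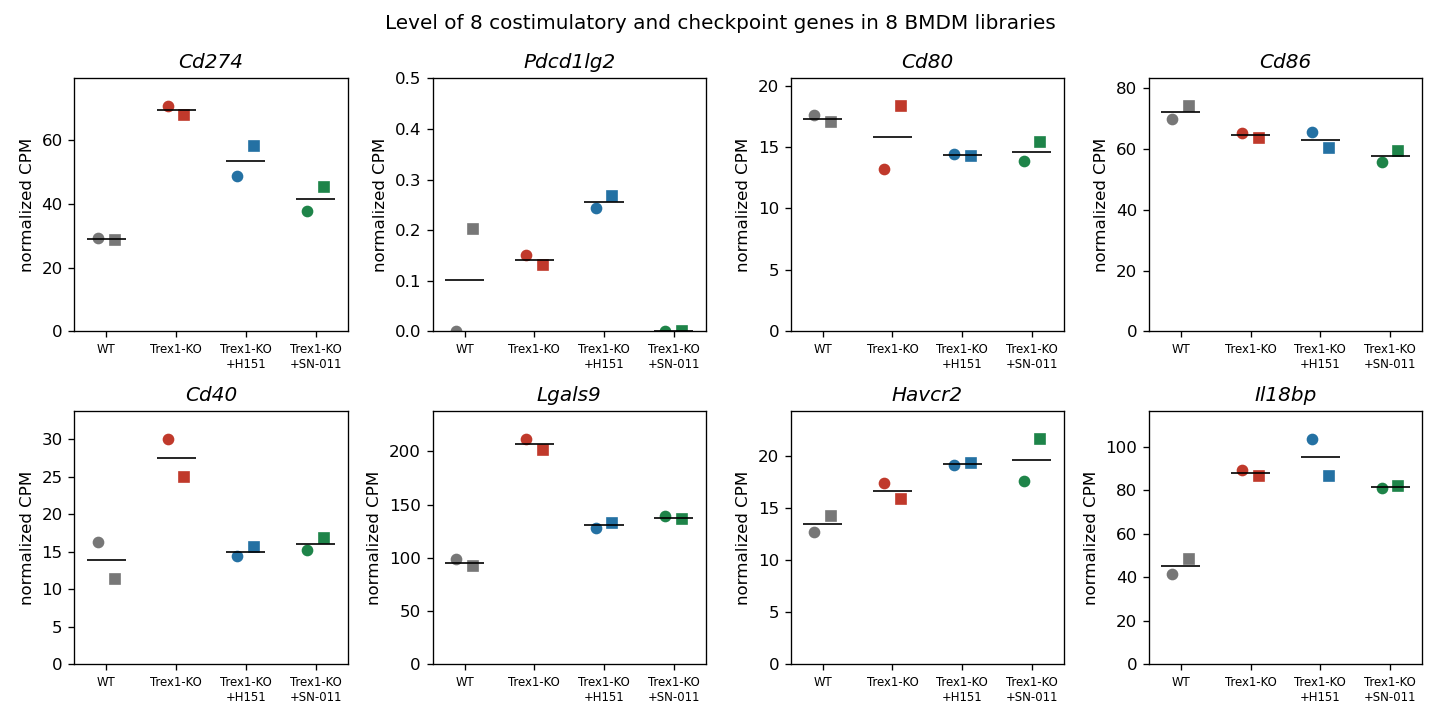
Level of each of the 8 genes (vertical axis, TMM-normalized CPM, each panel from 0) in the 4 groups (horizontal axis). Circles are replicate 1, squares replicate 2, and black lines the mean of 2 libraries; Cd274, Lgals9, Cd40 and Il18bp stood higher in both Trex1-KO libraries than in both WT libraries, and Pdcd1lg2 stayed under 0.3 CPM.

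Cd274 (ENSMUSG00000016496, chr19:29367455-29388095, plus strand, GRCm38) encodes PD-L1, the ligand that holds PD-1-bearing T cells in check. Its level was 29.3 and 28.8 CPM in the WT pair, 70.8 and 67.8 CPM in Trex1-KO, 48.7 and 58.0 CPM in Trex1-KO+H151, and 37.9 and 45.2 CPM in Trex1-KO+SN-011. Both Trex1-KO libraries were the highest of the 8 and both WT libraries the lowest, and no groups overlapped. The mean rose 2.39-fold from 29.0 ± 0.35 to 69.3 ± 2.1 CPM (SD, n = 2), or 1.26 ± 0.10 on the log2 scale (SE), with a Benjamini-Hochberg adjusted p of 1.36e-06 in the edgeR quasi-likelihood fit. With SN-011 it fell by 0.75 ± 0.10 on the log2 scale (SE, edgeR adjusted p = 0.000704), to 41.5 ± 5.2 CPM (SD, n = 2). With H151 the mean was 53.4 ± 6.6 CPM and the log2 fold change of -0.37 ± 0.10 missed the threshold (SE, edgeR adjusted p = 0.0853). That call depended on the analysis. The edgeR exact test gave an adjusted p of 0.0248, a filter at 1 count 0.00382 and a replicate block 0.0347. It was not called by DESeq2 (adjusted p = 0.0818), with RLE factors (edgeR, 0.0782) or in the compared groups alone (edgeR, 0.156), among others. Without replicate 2 of H151, the higher of that pair, the log2 fold change was -0.51, and without replicate 1 of H151 it was -0.25.

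The start of Cd274 lies beside that of another gene. Plgrkt, which encodes a plasminogen receptor, starts 0.065 kb before it and runs the other way on the opposite strand. RefSeq's promoter window for Cd274 (GRCm38.p6) therefore holds exons of both genes, and the stretch without an annotated exon runs only from -47 to -1 of its RefSeq start. It is shown, 5′ to 3′ on the plus strand at chr19:29367391-29367437, because Cd274 on one side of it was called higher in Trex1-KO and Plgrkt on the other was not called.

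Cd274: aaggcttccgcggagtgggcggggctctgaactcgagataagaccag

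The log2 fold change of Plgrkt was 0.05 ± 0.06 in Trex1-KO against WT, 0.03 ± 0.06 with H151 and -0.06 ± 0.06 with SN-011 (SE), and it was not called in any of these (edgeR adjusted p = 0.663, 0.978 and 0.755). Ric1 and Ermp1, farther along the chromosome, were not called either, and Rln1 and Mlana were not tested, with at most 2 counts in a library. Insl6, an insulin-like peptide gene 42.1 kb from Cd274, was called higher in Trex1-KO (log2 fold change 1.06 ± 0.25, SE, edgeR adjusted p = 0.00864), with means of 2.04 CPM (WT) and 4.25 CPM (Trex1-KO). With H151 and SN-011 its log2 fold changes against vehicle were 0.17 and 0.05, neither of them called (edgeR adjusted p = 0.930 and 0.954).

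**Figure D2:**
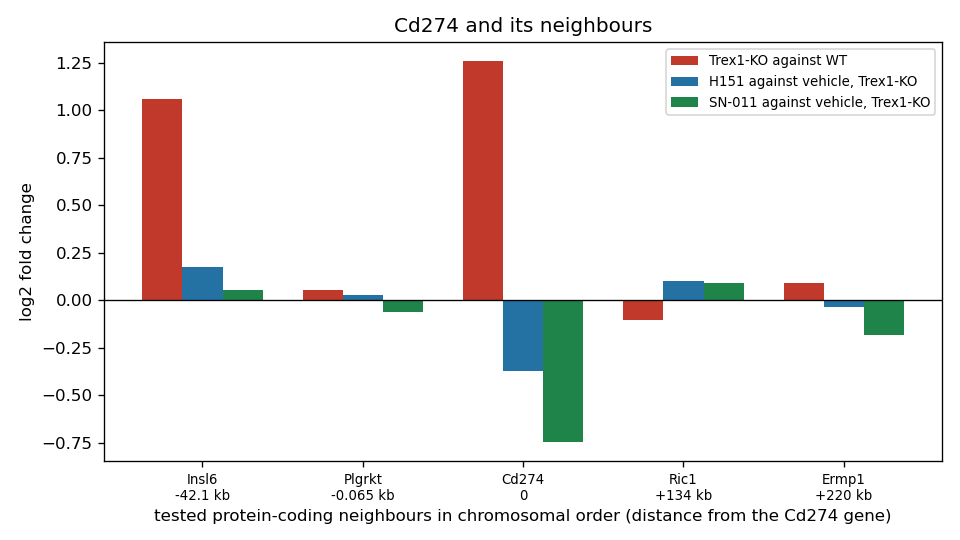
Log2 fold changes (vertical axis) of Cd274 and its tested protein-coding neighbours, in chromosomal order with their distance from the Cd274 gene in kb (horizontal axis). Red bars are Trex1-KO against WT, blue bars H151 and green bars SN-011 against vehicle in Trex1-KO; Plgrkt stood at 0.05, 0.03 and -0.06 on the log2 scale while Cd274 stood at 1.26, -0.37 and -0.75.

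Pdcd1lg2 (ENSMUSG00000016498, chr19:29410919-29471161, plus strand) encodes PD-L2, the other PD-1 ligand, and begins 22.824 kb after Cd274 ends. It had 0 and 3 counts in WT, 2 and 2 in Trex1-KO, 3 and 4 in Trex1-KO+H151, and 0 and 0 in Trex1-KO+SN-011. Only 1 library held more than the floor of 3 counts, so that the gene was not tested and a difference between groups was not detectable at this depth. A count of 0 allows up to 3 counts, or 0.174 and 0.254 CPM in the SN-011 libraries; these limits cover counting error only. The 250 bases before its RefSeq start, at chr19:29410669-29410918 on the plus strand, are shown because they hold a match to the kappaB motif, in capitals, in a gene with almost no reads.

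Pdcd1lg2: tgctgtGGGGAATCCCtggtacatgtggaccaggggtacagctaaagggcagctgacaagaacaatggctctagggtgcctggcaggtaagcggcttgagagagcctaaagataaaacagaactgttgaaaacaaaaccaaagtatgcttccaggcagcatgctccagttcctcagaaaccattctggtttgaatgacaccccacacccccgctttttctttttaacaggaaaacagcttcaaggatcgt

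Lgals9 (ENSMUSG00000001123, chr11:78962974-78984946, minus strand) encodes galectin-9, a sugar-binding ligand of the checkpoint receptor TIM-3. It was the most abundant of the 8 genes per length in every group. Its level was 98.9 and 92.3 CPM in the WT pair, 212 and 202 CPM in Trex1-KO, 128 and 133 CPM in Trex1-KO+H151, and 139 and 136 CPM in Trex1-KO+SN-011. Both antagonist pairs lay between WT and Trex1-KO with no overlap, and the means of the antagonist pairs lay closer together than the libraries of the Trex1-KO pair. The mean rose 2.16-fold from 95.6 ± 4.7 to 207 ± 7.3 CPM (SD, n = 2), or 1.11 ± 0.06 on the log2 scale (SE), with an edgeR adjusted p of 3.94e-08. It fell by 0.67 ± 0.06 on the log2 scale with H151 (SE, edgeR adjusted p = 2.90e-05) and, with SN-011, by 0.58 ± 0.06 (SE, edgeR adjusted p = 9.92e-05). In the study's own lists, Lgals9 belongs with an interferon module and Cd274 with the targets of RelB, labels that were used here for neither choice nor test.

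Promoter windows of 300 bases (250 before to 50 after the RefSeq start) were searched on both strands for 3 motifs: the interferon regulatory factor (IRF) repeat, which is GAAA and again GAAA with any 2 bases between, the STAT-binding GAS motif TTCNNNGAA, and the kappaB motif. Of 32851 windows in the mouse genome, 3.44% held the IRF repeat, 8.30% GAS and 4.51% kappaB. Among the 6 genes with a window (Cd274, Pdcd1lg2, Cd80, Havcr2, Lgals9 and Il18bp), the IRF repeat was found in that of Lgals9 alone, from -55 to -46 and from 15 to 24, and the kappaB motif in that of Pdcd1lg2 alone, from -244 to -235. Neither these nor GAS were found in the other 4 windows, which says only that these letters do not occur there. All 250 bases before the RefSeq start of Il18bp lie in its own annotated exons. The 250 bases before that of Cd80, at chr16:38458683-38458932, lie inside the gene as positioned here. The bases before the outermost annotated starts of Il18bp and Cd80 were therefore not searched. The bases from -250 to -23 of Lgals9, at chr11:78984947-78985174, are shown 5′ to 3′ on the minus strand with the IRF repeat in capitals, read here from the strand opposite to the motif as spelled, because this gene had the smallest adjusted p of the 7 tested genes in Trex1-KO against WT.

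Lgals9: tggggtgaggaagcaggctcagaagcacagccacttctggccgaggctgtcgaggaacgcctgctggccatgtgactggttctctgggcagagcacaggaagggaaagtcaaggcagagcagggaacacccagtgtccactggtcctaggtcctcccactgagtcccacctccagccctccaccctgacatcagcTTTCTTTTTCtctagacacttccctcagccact

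Havcr2 (ENSMUSG00000020399, chr11:46454935-46481255, plus strand) encodes TIM-3, a receptor of galectin-9 that is carried by macrophages as well as exhausted T cells. Its level was 12.7 and 14.3 CPM in the WT pair, 17.4 and 15.9 CPM in Trex1-KO, 19.1 and 19.4 CPM in Trex1-KO+H151, and 17.6 and 21.7 CPM in Trex1-KO+SN-011. WT held the 2 lowest libraries, and the SN-011 pair overlapped the H151 pair. The log2 fold change in Trex1-KO against WT was 0.30 with a 95% interval of 0.01 to 0.59 and was not called (edgeR adjusted p = 0.172). Against vehicle its log2 fold changes were 0.21 with H151 and 0.23 with SN-011, neither called (edgeR adjusted p = 0.735 and 0.517). They ran from 0.15 to 0.28 with H151 and from 0.086 to 0.38 with SN-011 as each library was left out.

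Cd80 (ENSMUSG00000075122, chr16:38455561-38496335, plus strand) and Cd86 (ENSMUSG00000022901, chr16:36603869-36666081, minus strand) encode the B7 ligands of CD28 and CTLA-4. Cd86 was measured at 69.9 and 74.4 CPM in the WT pair, 65.4 and 63.6 CPM in Trex1-KO, 65.6 and 60.5 CPM in Trex1-KO+H151, and 55.8 and 59.4 CPM in Trex1-KO+SN-011. WT was the highest pair, SN-011 the lowest, and Trex1-KO and H151 overlapped. Its log2 fold change in Trex1-KO against WT was -0.16 with a 95% interval of -0.32 to -0.003 (edgeR adjusted p = 0.173), and scaling by total counts alone gave -0.25 and an edgeR adjusted p of 0.0370. Scaled in that way Cd86 was also called lower in H151-treated Trex1-KO than in WT (edgeR adjusted p = 0.0420). Cd80 was measured at 17.6 and 17.1 CPM in the WT pair, 13.2 and 18.4 CPM in Trex1-KO, 14.4 and 14.3 CPM in Trex1-KO+H151, and 13.8 and 15.4 CPM in Trex1-KO+SN-011. The 2 Trex1-KO libraries of Cd80 enclosed the values of all other groups. Its log2 fold change of -0.13 in Trex1-KO against WT had a 95% interval of -0.45 to 0.19 (edgeR adjusted p = 0.643), so that a doubling such as that of Cd274 lay outside the interval of both B7 ligands. Neither was called with H151 or with SN-011 against vehicle, where their log2 fold changes lay between -0.17 and -0.03.

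Cd40 (ENSMUSG00000017652, chr2:165055627-165072948, plus strand) encodes the receptor through which helper T cells license macrophages and dendritic cells. Its level was 16.3 and 11.4 CPM in the WT pair, 30.1 and 24.9 CPM in Trex1-KO, 14.4 and 15.6 CPM in Trex1-KO+H151, and 15.2 and 16.9 CPM in Trex1-KO+SN-011. The Trex1-KO pair stood above all other libraries, and both antagonist pairs overlapped WT. The mean rose 1.99-fold from 13.8 ± 3.5 to 27.5 ± 3.7 CPM (SD, n = 2), or 0.99 ± 0.16 on the log2 scale (SE), with an edgeR adjusted p of 0.000549. It fell by 0.87 ± 0.16 on the log2 scale with H151 (SE, edgeR adjusted p = 0.00739) and, with SN-011, by 0.78 ± 0.16 (SE, edgeR adjusted p = 0.0149). The calls, though not the direction, depended on single libraries, with log2 fold changes from -0.997 to -0.73 for H151 and -0.91 to -0.64 for SN-011 as each was left out: without replicate 1 of Trex1-KO the edgeR adjusted p was 0.0623 for H151 and 0.128 for SN-011, and for SN-011 it was 0.257 without replicate 1 and 0.0782 without replicate 2 of that group.

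Il18bp (ENSMUSG00000070427, chr7:102014885-102018690, minus strand) encodes IL-18 binding protein, a secreted decoy that keeps IL-18 from its receptor on T and NK cells. Its level was 41.6 and 48.6 CPM in the WT pair, 89.2 and 86.6 CPM in Trex1-KO, 104 and 86.3 CPM in Trex1-KO+H151, and 80.95 and 82.1 CPM in Trex1-KO+SN-011. All 6 Trex1-KO libraries, treated or not, exceeded both WT libraries, and H151 overlapped the vehicle pair. The mean rose 1.95-fold from 45.1 ± 4.9 to 87.9 ± 1.8 CPM (SD, n = 2), or 0.96 ± 0.09 on the log2 scale (SE), with an edgeR adjusted p of 7.73e-06. Against vehicle its log2 fold change was 0.11 with H151 (95% interval -0.08 to 0.31, edgeR adjusted p = 0.843) and -0.11 with SN-011 (95% interval -0.30 to 0.09, edgeR adjusted p = 0.686). In both intervals a fall as large as that of Lgals9 was not contained. Of the merged exons of Il18bp, 80 bases (2.6%) are shared with Numa1, where read pairs may not have been counted for either gene.

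In Trex1-KO against WT, 4 of the 7 tested genes were called, all higher, where 16.4% of all 14591 tested genes were called (9.27% higher and 7.11% lower). The genes were not chosen independently of these data, so that this is a description. With total counts only, 946 of 2544 called genes were higher against 1352 of 2390 with TMM factors, and the same 4 genes remained called higher. The median log2 fold change of the 7 genes was 0.96, against 0.00 for all tested genes. With H151 against vehicle 2 of 7 were called, both lower, where 2.23% of all genes were called (0.384% higher and 1.84% lower), and with SN-011 3 of 7 were called, all lower, where 2.33% of all genes were (0.11% higher and 2.22% lower). These comparisons share the 2 Trex1-KO libraries and are not independent of each other.

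**Figure D3:**
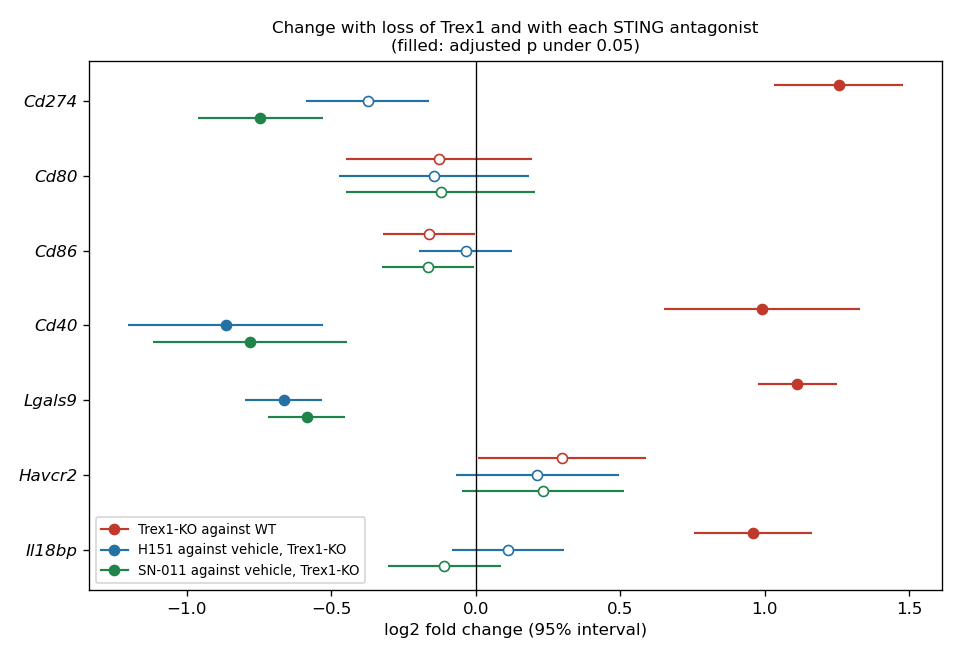
Log2 fold changes with 95% intervals (horizontal axis) of the 7 tested genes (rows) for Trex1-KO against WT (red), H151 against vehicle (blue) and SN-011 against vehicle (green) in Trex1-KO. Filled circles have an edgeR adjusted p under 0.05; Cd274, Cd40, Lgals9 and Il18bp lie right of zero in red, and of these only Il18bp has both antagonist intervals across zero.

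The antagonists were also compared with each other, at the same time and, per the methods, the same concentration. None of the 7 genes was called between SN-011 and H151 by the edgeR quasi-likelihood test, where 0.158% of all tested genes were, and 2 of the 7 had an unadjusted p under 0.05. By the edgeR exact test and by DESeq2 the number called was also 0, and with a filter at 1 count it was 1. That gene was Cd274, which was lower with SN-011 than with H151 by a log2 fold change of -0.37 (95% interval -0.59 to -0.15, edgeR adjusted p = 0.319, and 0.0168 with the filter at 1 count). The second was Il18bp, with -0.22 (95% interval -0.41 to -0.02, edgeR adjusted p = 0.526). As each library was left out, these differences ran from -0.50 to -0.24 for Cd274 and from -0.35 to -0.081 for Il18bp. For Lgals9 the interval of the difference ran from -0.05 to 0.22 and for Cd40 from -0.27 to 0.44 on the log2 scale. A p that misses the threshold does not show that the compounds act alike on these genes.

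Antagonist-treated Trex1-KO BMDMs were then set beside WT to see how far from WT each gene remained. With H151, 4 of 7 genes were called, all higher (11.8% of all tested genes, 6.79% higher and 5.04% lower), and with SN-011 5 of 7, 4 higher and 1 lower (11.7%, 6.18% higher and 5.57% lower). With total counts only, 715 of 1713 calls over all genes were higher for H151 and 703 of 1745 for SN-011, against 990 of 1726 and 902 of 1714 with TMM factors. Cd274 remained above WT by 0.88 ± 0.11 on the log2 scale with H151 (SE, edgeR adjusted p = 8.46e-05) and 0.51 ± 0.11 with SN-011 (SE, edgeR adjusted p = 0.00603). Lgals9 remained above WT by 0.45 ± 0.06 and 0.53 ± 0.06 (SE, edgeR adjusted p = 0.000349 and 8.81e-05), and Il18bp by 1.07 ± 0.09 and 0.85 ± 0.09 (SE, edgeR adjusted p = 6.33e-06 and 4.69e-05). Cd40 was not called against WT with either compound, at log2 fold changes of 0.12 (95% interval -0.24 to 0.48) and 0.21 (95% interval -0.15 to 0.57).

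Havcr2, which was not called in untreated Trex1-KO, was called above WT in both treated groups, by 0.51 ± 0.13 with H151 and 0.53 ± 0.13 with SN-011 (SE, edgeR adjusted p = 0.0230 and 0.0180). Its change against vehicle was not called, so that it is not shown to differ between treated and untreated Trex1-KO. The H151 call did not hold with DESeq2 (log2 fold change 0.51, adjusted p = 0.0534) or without any 1 of the 4 libraries (edgeR adjusted p from 0.0614 to 0.198, log2 fold change from 0.42 to 0.59). The SN-011 call was lost without replicate 1 of WT (0.177) or replicate 2 of SN-011 (0.206), with log2 fold changes from 0.37 to 0.68 as each library was left out. Cd86 was called lower than WT with SN-011, with a log2 change of -0.33 ± 0.07 (SE) and an edgeR adjusted p of 0.00969, which was lost without replicate 2 of WT (0.0914) or replicate 1 of SN-011 (0.126), with log2 fold changes from -0.38 to -0.28 as each library was left out. The SN-011 call of Cd274 was lost without either WT library (0.0519 and 0.0547) or without replicate 2 of SN-011 (0.103), at log2 fold changes of 0.37 to 0.64 over the 4 libraries left out in turn.

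**Figure D4:**
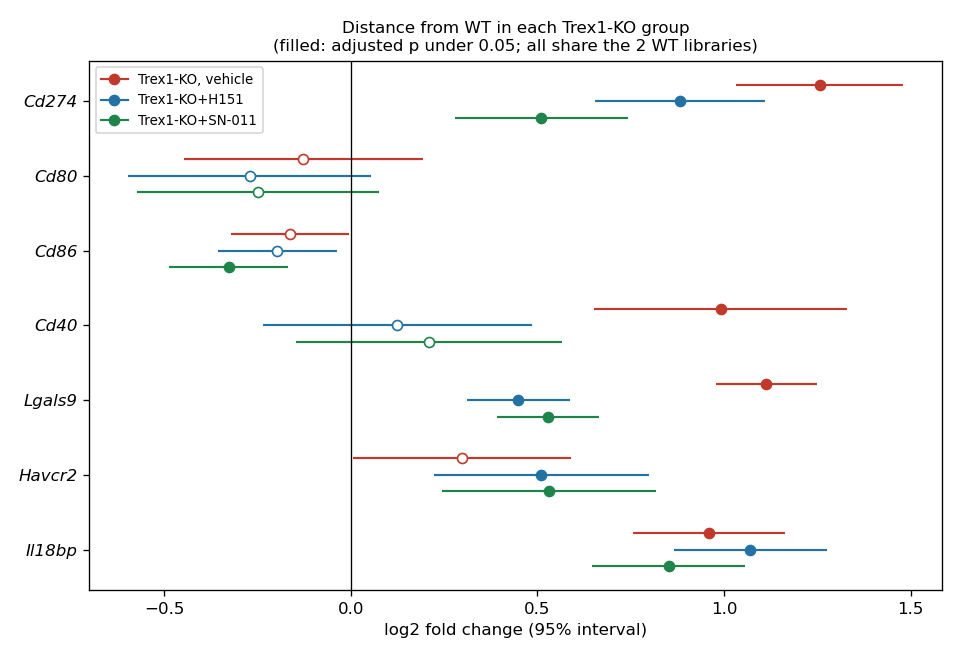
Log2 fold changes against WT with 95% intervals (horizontal axis) of the 7 tested genes (rows) in Trex1-KO with vehicle (red), H151 (blue) and SN-011 (green); filled circles have an edgeR adjusted p under 0.05, and all 3 groups share the 2 WT libraries. Il18bp stays between 0.85 and 1.07 in all 3 groups, and Cd40 moves from 0.99 to 0.12 and 0.21.

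Levels were ordered as CPM per kilobase of merged exon, a scale that allows comparison between genes. In WT the order was Lgals9 (44.7 ± 2.2), Cd86 (19.7 ± 0.87), Il18bp (14.9 ± 1.6), Cd274 (8.01 ± 0.10), Havcr2 (4.96 ± 0.41), Cd80 (4.68 ± 0.10) and Cd40 (4.06 ± 1.0), with Pdcd1lg2 last (SD, n = 2). The libraries of Havcr2 and Cd80 and those of Cd80 and Cd40 overlapped there, and no other neighbours did. In Trex1-KO the order was Lgals9 (96.8 ± 3.4), Il18bp (29.0 ± 0.59), Cd274 (19.1 ± 0.59), Cd86 (17.6 ± 0.35), Cd40 (8.07 ± 1.1), Havcr2 (6.12 ± 0.40) and Cd80 (4.26 ± 0.99), with no neighbours overlapping. PD-L1 transcripts thus stood below those of CD86 in WT and above them in Trex1-KO, and below them again with H151 (14.7 ± 1.8 against 17.2 ± 0.98) and SN-011 (11.5 ± 1.4 against 15.7 ± 0.68).

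Across the 8 libraries, which share genotype and treatment groups, log2 CPM of Cd274 and Lgals9 had a Pearson's r of 0.91, Cd40 and Lgals9 of 0.90, Havcr2 and Il18bp of 0.82, and Cd86 and Havcr2 of -0.70. Among 10660 tested genes whose log2 CPM averaged 2 or more, the profile most like that of Lgals9 was that of Parp12 (r = 0.998), an interferon-induced ADP-ribosyltransferase, followed by Slfn8 (r = 0.998). Cd274 was most like Erap1 (r = 0.991), the aminopeptidase that trims peptides for MHC class I, and Asah2 (r = 0.984). Cd40 was most like Dcp2 (r = 0.989) and Capza2 (r = 0.983), and Il18bp most like Itgb2 (r = 0.998), the beta chain of leukocyte integrins, and Flii (r = 0.991). For Havcr2 the nearest genes were Fcho1 (r = 0.976) and Yipf1 (r = 0.972), for Cd86 Kif1b (r = 0.978) and 4833420G17Rik (r = 0.968), and for Cd80 Mpi (r = 0.964) and Arpin (r = 0.922). These values describe 8 libraries in 4 groups and were picked as the highest of many.

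The partners of these genes were read from 7 lists, whose counts stand beside the shares called over all tested genes: 9.27% higher and 7.11% lower in Trex1-KO, 1.84% lower with H151 and 2.22% lower with SN-011. The median log2 fold change of the tested members in Trex1-KO was 0.15 for the control of PD-L1, 0.27 for CD40 signalling, 0.45 for IL-18, 0.30 for the other costimulatory ligands, 0.35 for the other inhibitory genes, 0.11 for the TIM and galectin families and 0.32 for the T-cell receptors, against 0.00 for all tested genes. The median of the T-cell receptors is the value of Cd28 itself, and the other tested genes of that list had at most 27 counts in a library. Of 19 genes that control PD-L1, all tested, 6 were called higher in Trex1-KO and none lower. Among them was the interferon signal transducer Stat2 (113 ± 6.0 to 336 ± 20 CPM, SD, n = 2, log2 fold change 1.57 ± 0.07, SE, edgeR adjusted p = 3.24e-09). The transcription factors Irf1, Irf9 and Irf2 rose by 0.64 ± 0.09, 0.61 ± 0.07 and 0.46 ± 0.06 on the log2 scale (SE). With each antagonist 3 of the 19 were called lower, and Stat2 and Irf1 were among them with both. Cmtm6, which protects PD-L1 protein from degradation, was not called, at -0.03 ± 0.06 on the log2 scale (SE, edgeR adjusted p = 0.819).

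Of 12 genes of CD40 signalling, 4 were called higher in Trex1-KO and none lower: Traf1, an adaptor of TNF-receptor family signalling (1.34 ± 0.14), the survival gene Bcl2l1 (0.45 ± 0.08), Birc3 (0.40 ± 0.10) and the NF-kappaB subunit Relb (0.34 ± 0.09), as log2 fold changes with SE. Traf1 and Relb were called lower again with both antagonists, Birc3 with SN-011 only by its own test (-0.57 ± 0.10, with -0.23 ± 0.10 for H151), and Bcl2l1 with neither (-0.01 ± 0.08 and 0.03 ± 0.08). The difference of Birc3 between the compounds was not called (edgeR adjusted p = 0.364). Cd40lg, the ligand of CD40, had 0 counts in all libraries.

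In the IL-18 list 8 of 9 genes were tested, and 4 were called higher in Trex1-KO and none lower. Il18 itself rose from 15.6 ± 0.79 CPM in WT (SD, n = 2) by 0.50 ± 0.12 on the log2 scale (SE, edgeR adjusted p = 0.0127), and Casp1, the protease that matures it, by 0.58 ± 0.07 (SE, edgeR adjusted p = 4.85e-05). Gsdmd, the pore through which it leaves the cell, rose by 0.26 ± 0.07 and the inflammasome sensor Nlrp3 by 0.24 ± 0.07 on the log2 scale (SE). Transcripts of the cytokine and of its inhibitor Il18bp were therefore both higher in Trex1-KO. With the antagonists only Nlrp3 was called, lower with both (-0.45 ± 0.07 and -0.40 ± 0.07, SE), while Il18 had log2 fold changes of -0.27 and 0.06. The receptor gene Il18r1 had at most 2 counts in a library.

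Among 11 other costimulatory ligands 8 were tested and 3 were called higher in Trex1-KO, none lower. The adhesion ligand Icam1 rose by 0.66 ± 0.13 and the ICOS ligand gene Icosl by 0.62 ± 0.15 on the log2 scale (SE, edgeR adjusted p = 0.00284 and 0.0134), and both fell with H151 (-0.86 ± 0.13 and -0.79 ± 0.16) and SN-011 (-0.83 ± 0.13 and -0.79 ± 0.16). The third was Tnfsf8, which encodes the CD30 ligand and was named after its values were seen. Its WT libraries stood at 0.0735 CPM (1 count) and 0 CPM, under the floor of 3 counts. In Trex1-KO its mean was 3.27 ± 0.81 CPM (SD, n = 2), and it was called higher (edgeR adjusted p = 1.96e-05). With H151 its mean was 1.61 CPM, and the SN-011 mean was 1.56 CPM, neither called against vehicle (edgeR adjusted p = 0.266 and 0.180).

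Among 20 other inhibitory ligands and receptors 14 were tested, and 7 were called higher and 2 lower in Trex1-KO. Fgl2, a ligand of the inhibitory Fc receptor, rose from 50.0 ± 13 to 164 ± 13 CPM (SD, n = 2, log2 fold change 1.72 ± 0.13, SE, edgeR adjusted p = 5.20e-07). H2-T23, the mouse Qa-1 ligand of NKG2A, rose by 1.09 ± 0.07 and Pirb, an inhibitory receptor for MHC class I, by 0.72 ± 0.06 on the log2 scale (SE), and all 3 were called lower with both antagonists. Cd200, ligand of an inhibitory receptor on myeloid cells, fell by 0.87 ± 0.27 on the log2 scale at 4.41 ± 0.31 CPM in WT (edgeR adjusted p = 0.0463). In all, 5 of the 14 were called lower with H151 and 6 with SN-011.

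Among 9 genes of the TIM and galectin families and their ligands, 6 were tested, and 2 were called higher and 1 lower in Trex1-KO. Lgals3bp, a galectin-binding glycoprotein, rose by 1.26 ± 0.06 on the log2 scale (SE, edgeR adjusted p = 1.21e-08) and fell with H151 (-0.39 ± 0.06) and SN-011 (-0.44 ± 0.06). Lgals3, galectin-3, rose by 0.41 ± 0.07 in Trex1-KO and by a further 0.39 ± 0.07 with H151 (SE, edgeR adjusted p = 0.000626 and 0.00462), the opposite direction to Lgals9. Hmgb1, a TIM-3 ligand, fell by 0.23 ± 0.07 (SE). The other TIM genes Havcr1, Timd2 and Timd4 had 0 counts, so that Havcr2 was the only one of the 4 detected.

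Of 13 receptors through which T cells read these ligands, 7 were tested and 1 was called in Trex1-KO, a share near the 16.4% of all tested genes. This was Cd28, the receptor of CD80 and CD86, measured in WT at 120.4 ± 13 CPM and in Trex1-KO at 149.9 ± 2.8 CPM (SD, n = 2, log2 fold change 0.32 ± 0.08, SE, edgeR adjusted p = 0.0156). It was higher again with H151, at 205 ± 5.8 CPM (log2 fold change 0.45 ± 0.08, SE, edgeR adjusted p = 0.00643), and not called with SN-011 (0.16 ± 0.08). Of the 6 T-cell markers, Cd3e, Cd3d and Cd8a had at most 2 counts in any library and Trac and Lck at most 6, whereas Cd4 reached 492. Pdcd1 and Ctla4, which encode the receptors of PD-L1 and of the B7 ligands, had at most 1 count.

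**Figure D5:**
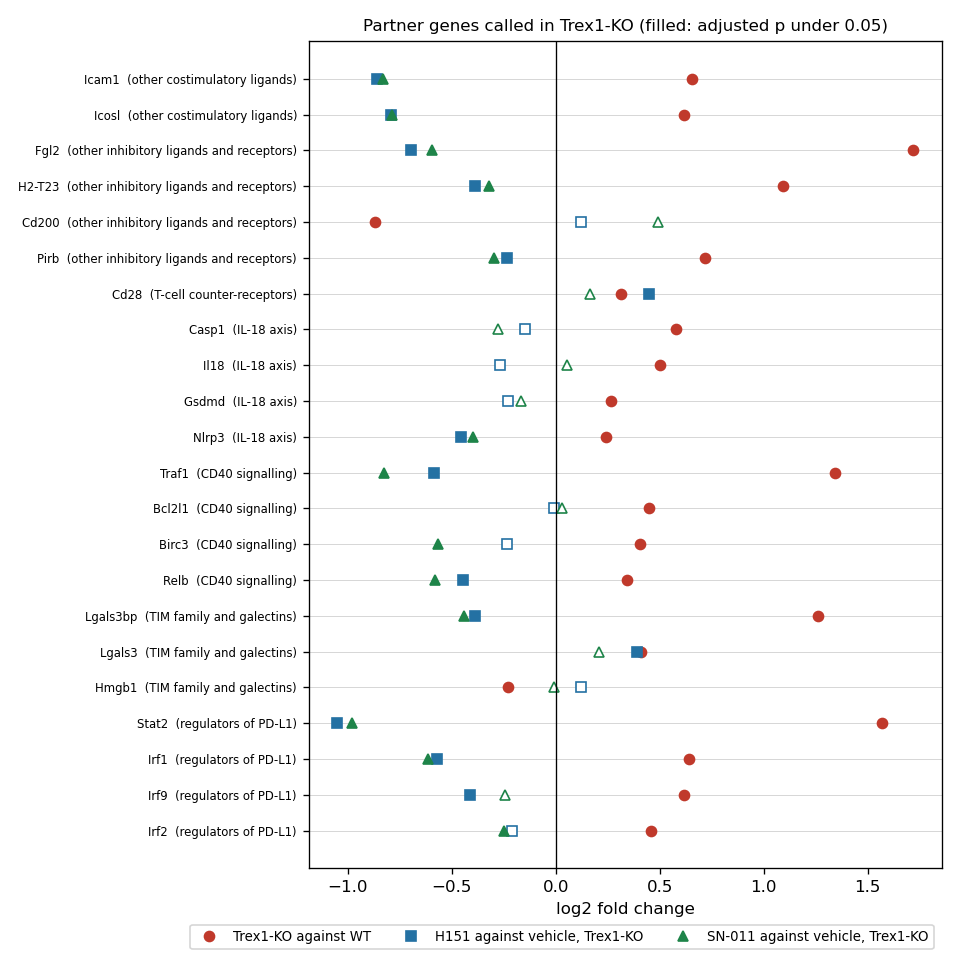
Log2 fold changes (horizontal axis) of the 22 named partner genes (rows, with their list) in Trex1-KO against WT (circles), with H151 (squares) and with SN-011 (triangles) against vehicle in Trex1-KO; filled symbols have an edgeR adjusted p under 0.05. Stat2, Icam1 and Fgl2 lie on opposite sides of zero in the genotype and antagonist comparisons, whereas Cd28 and Lgals3 lie right of zero in all 3.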

How the data were processed

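Polyadenylated RNA of 8 BMDM libraries was sequenced as pairs of 150-base reads. The authors trimmed reads with Trimmomatic, aligned them with hisat2 and counted uniquely mapped pairs per gene. The study's methods name featureCounts for the counting step, the submitters' processing notes name HISAT2, HTSeq and mm10, and labels and methods name different HiSeq models. Versions, annotation and strand setting are not given in the sources used here. The files, as deposited, give unnormalized counts of 54532 Ensembl genes in each library. Symbols, positions and exon lengths came from GENCODE mouse release M21 (GRCm38), and promoter sequences from RefSeq (GRCm38.p6), for 6 of the 8 genes.

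Counts were scaled by trimmed means of M-values (TMM) in edgeR 4.0.16 (R 4.3.3). Genes passing filterByExpr (minimum count 10, minimum total 15) numbered 14591. The 8 libraries entered 1 quasi-likelihood fit with a mean per group, tested two-sided by F-test, and p-values were adjusted after Benjamini-Hochberg over all 14591 genes, with a gene called at an adjusted p under 0.05. The standard error (SE) of a log2 fold change is its absolute value over the square root of F, and intervals are 95%. CPM per kilobase used merged exon length, which overstates the length of a gene with several isoforms. The fit was tested on simulated counts beforehand. Alternatives were the edgeR exact test, DESeq2 1.42.0, RLE factors, total counts only, other filters, the compared groups alone, a replicate block, and leaving out each library. No library was left out of the results.

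The members and the gene lists were chosen with earlier results of these data known. From each list, up to 4 genes called in Trex1-KO against WT are named, those with the largest changes at an average log2 CPM of at least 1, with the 3 nearest protein-coding genes on each side of Cd274 and Pdcd1lg2 and the 2 genes most alike each tested member. Of the genes that control PD-L1, 1 is not reported here and was left out of that list's counts.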

Additional observations from a re-analysis of the deposited data

How the results depend on the processing

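The 7 tested genes and the counts of called genes were recomputed under 12 alternatives in each comparison. The 4 calls in Trex1-KO against WT (Cd274, Lgals9, Cd40 and Il18bp) held under every alternative run. Leaving out 1 library at a time gave 1 to 3 of the 7 genes called for H151 against Trex1-KO, 2 to 3 for SN-011 against Trex1-KO, 3 for H151 against WT and 3 to 4 for SN-011 against WT; the count of 1 arose without replicate 1 of Trex1-KO. A filter at 1 count gave 1 gene called between SN-011 and H151 where the count was otherwise 0. Directions turned only among log2 fold changes near zero, each when 1 library was left out. For Cd80 they ran from -0.39 to 0.074 in Trex1-KO against WT, -0.36 to 0.12 with H151, -0.33 to 0.14 with SN-011 and -0.051 to 0.10 between SN-011 and H151. For Cd40 against WT they ran from -0.13 to 0.39 with H151 and -0.041 to 0.48 with SN-011. They ran from -0.024 to 0.24 for Il18bp and -0.091 to 0.024 for Cd86 with H151, and from -0.13 to 0.17 for Havcr2 between the compounds. The cause was not tested. Over all genes, the filter at 1 count called 525 genes against 325 for H151, 679 against 340 for SN-011 and 266 against 23 between the compounds, where the exact test called 84, DESeq2 38 and the replicate block 44. Leave-one-out counts over all genes ran from 1556 to 1933 in Trex1-KO against WT, 971 to 1772 for H151 and 909 to 1159 for SN-011 against WT, 131 to 302 for SN-011 against Trex1-KO, and 2 to 291 between the compounds. Same-numbered libraries did not deviate together in every pair of groups (r from -0.03 to 0.24 across genes, highest between Trex1-KO and H151), and no source used here says that a number marks a shared mouse or day; with the replicate number as a block, Cd274 with H151 against Trex1-KO gave a log2 fold change of -0.38 and an edgeR adjusted p of 0.0347, and no other call of the 7 genes changed. Genes near 3 counts, such as Pdcd1lg2, are beyond the depth of these libraries.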
